A study of Mus musculus with 16 samples.

Results

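The genes of AP-1 and EGR transcription factors that are switched on within minutes of a stimulus were followed in splenic dendritic cells (DCs) of mice with and without Trim33, a TIF1 family protein that acts on chromatin. They were taken by name: the FOS genes Fos, Fosb and Fosl2, the JUN genes Jun, Junb and Jund, the EGR genes Egr1, Egr2 and Egr3, and Atf3. All 10 genes were listed in both tables of expression values, among 17128 genes in the plasmacytoid DC (pDC) table and 17721 in the conventional DC (cDC) table. All 10 also passed the filter on low values, a mean over the libraries of a table of at least 1 TPM, the unit that scales a transcript's share of a library to a fixed total, with 11299 and 11411 genes tested in all.

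Spleens came from C57BL/6 mice of 6 to 8 weeks, either Trim33 fl/fl (labelled wild type, WT) or Trim33 fl/fl Itgax-Cre (conditional knockout, cKO), so that both genotypes carried the floxed alleles and only the cKO mice carried Cre. The 6 groups were sorted and sequenced in 16 libraries, namely WT and cKO pDCs with 3 libraries each, WT and cKO cDC1s with 2 each, and WT and cKO cDC2s with 3 each. The Itgax promoter, which drives CD11c, is active in cells other than DCs, and Cre driven by it acts only once that promoter is on. The gates were CD11c+ SiglecH+ for pDCs, CD24+ CD172a- for cDC1s and CD24- CD172a+ for cDC2s. Spleens were digested with enzymes and the cells depleted of other lineages, stained and sorted before lysis. The study describes each library as a biological repeat from a pool of several mice, with more mice in a cKO pool than in a WT pool, so p-values measure the spread between pools, and genotype and pool size cannot be told apart in that spread.

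FOS and JUN proteins pair through leucine zippers to form AP-1, which binds DNA at sites in the enhancers of many response genes. The EGR proteins bind GC-rich sites through zinc fingers, and ATF3 is a relative of the FOS and JUN proteins that forms dimers with them and often represses. Their genes are held ready for transcription, so that kinases such as ERK, JNK and p38 can raise them through SRF, ELK and CREB within minutes without new protein. In DCs and other leukocytes they rise on microbial or adhesive stimulation, and also while tissue is digested and cells are sorted. Their mRNAs decay fast, so the level in a library is a snapshot of the time before lysis.

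Promoters bear on how such genes are switched on, and the 250 bases before the start site of 4 genes are given here because Egr2 and Junb were lower in cKO cDC1s, whereas Fos was not called and Jun stood higher without a call. The sequences are from RefSeq on GRCm38.p6, 5′ to 3′ on the strand of the gene. Capitals mark matches, on either strand, to letters named in the next paragraph. The windows are chr10:67537619-67537868 (plus strand) for Egr2, chr8:84978749-84978998 (minus strand) for Junb, chr12:85473640-85473889 (plus strand) for Fos and chr4:95052223-95052472 (minus strand) for Jun. RefSeq gave 5 start sites for Egr2, and the one shared with a GENCODE transcript of the gene was used.
Egr2: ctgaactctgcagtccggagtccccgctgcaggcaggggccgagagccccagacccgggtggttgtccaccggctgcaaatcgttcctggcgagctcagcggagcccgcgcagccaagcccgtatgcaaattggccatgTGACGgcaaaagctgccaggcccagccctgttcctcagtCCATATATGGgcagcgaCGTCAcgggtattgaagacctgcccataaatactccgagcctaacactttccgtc
Junb: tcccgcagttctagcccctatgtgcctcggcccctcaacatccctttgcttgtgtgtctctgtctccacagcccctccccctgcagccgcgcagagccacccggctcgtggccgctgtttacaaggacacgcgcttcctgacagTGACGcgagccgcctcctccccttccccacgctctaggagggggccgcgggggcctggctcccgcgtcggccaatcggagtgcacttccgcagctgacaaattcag
Fos: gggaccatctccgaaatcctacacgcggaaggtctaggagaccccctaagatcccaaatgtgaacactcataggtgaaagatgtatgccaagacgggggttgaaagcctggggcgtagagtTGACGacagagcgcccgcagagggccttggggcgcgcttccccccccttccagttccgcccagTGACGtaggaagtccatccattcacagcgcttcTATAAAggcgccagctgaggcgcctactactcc
Jun: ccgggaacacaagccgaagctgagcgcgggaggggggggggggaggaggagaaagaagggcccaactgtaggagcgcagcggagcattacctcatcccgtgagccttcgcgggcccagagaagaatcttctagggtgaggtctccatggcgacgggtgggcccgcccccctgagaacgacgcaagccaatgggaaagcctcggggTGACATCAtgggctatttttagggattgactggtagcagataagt

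Matches were searched on both strands in the same window of 32851 promoters. The core of the cAMP response element, TGACG, lay in 5 of the 8 member windows on record and in 17.8% of all windows. It began 111 and 55 bases before the Egr2 start site, 106 before that of Junb, 129 and 66 before that of Fos, 60 before that of Fosb and 7 before that of Atf3. The full element, TGACGTCA, which holds the core, was in 0 of 8 windows and in 1.55% of all. The AP-1 site TGANTCA was likewise in 0 of 8 and in 6.75% of all, and its Jun-type variant TGACATCA, which overlaps neither, was in the Jun window alone, 45 bases before the start, and in 2.93% of all. Egr2 was the one member window with a CArG box, the binding site of SRF, 72 bases before its start (1.47% of all windows). An EGR site, GCGNGGGCG, lay in the windows of Fosb and Fosl2 (4.70% of all), and the TATA box TATAAA in that of Fos, 33 bases before the start (12.4% of all). The window of Jund held no match, and Egr1 and Egr3 had no entry. A match is a string of letters and not evidence that a factor binds there. Bases further upstream were not searched, so a window without a match does not show that the gene lacks the site.

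Across the series, the steps of the lowest values gave about 18300000 counted reads per pDC library and 19300000 per cDC library, so that 1 TPM of a transcript of 2000 bases rested on 16.9 to 21.0 reads. The limit that 3 reads allow was 0.143 to 0.178 TPM for such a transcript. Trim33 was lower in every cKO library, at 11.7 to 16.5 TPM against 20.6 to 23.8 in WT pDCs, at 7.71 to 7.88 against 15.5 to 18.2 in cDC1s and at 7.13 to 8.07 against 17.2 to 20.6 in cDC2s. The log2 fold changes were -0.68, -1.02 and -1.17 (limma, adjusted p = 0.0301, 0.000349 and 0.000126), the first of which missed the threshold used here. These values cover the whole transcript and not the deleted exons alone. The pDC markers summed to 13450 to 14430 TPM in pDC libraries and to 157.2 to 296.1 in cDC libraries. cDC1 markers summed to 1578 to 1970 TPM in cDC1s and 260.2 to 422.2 in cDC2s, and cDC2 markers to 29.71 to 34.48 in cDC1s and 1028 to 1374 in cDC2s. In pDC libraries cDC1 markers summed to 238.9 to 312.2 TPM and cDC2 markers to 1642 to 1831, so the cDC2 list did not set cDC2s apart from pDCs. Some of these markers were themselves called between genotypes, such as the lower Itgae (-2.70), Cadm1 (-1.74) and Clec9a (-1.33) in cKO cDC1s, the lower Cd4 and Esam and higher Itgam and Clec10a in both cKO cDC subsets, and the higher Itgam (2.92) in cKO pDCs. In bulk libraries, fewer cells of a type and less RNA per cell cannot be told apart.

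A pair of WT libraries stood apart for the genes studied here. WT cDC2 library 1 held the highest value of its group for 10 of 10 members, but for 16.2% of all genes tested. WT cDC1 library 2 was the higher of its pair for 9 of 10 members, Egr1 being the exception, and for 45.4% of all genes. The summed level of the 10 genes was 15090 TPM in WT cDC2 library 1 against 5419 and 7208 in the other two, and 7226 in WT cDC1 library 2 against 4290 in library 1. In cKO cDC1s, library 2 was likewise the higher of its pair for 9 of 10 members and for 39.1% of all genes. The fold changes and calls of the 10 genes, the spread in WT cDC2s and the medians of the response lists are also given without the high WT libraries. This choice was made after the values were seen. Without both, WT cDC1s are 1 library, taken to vary like the other groups.

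**Figure D1:**
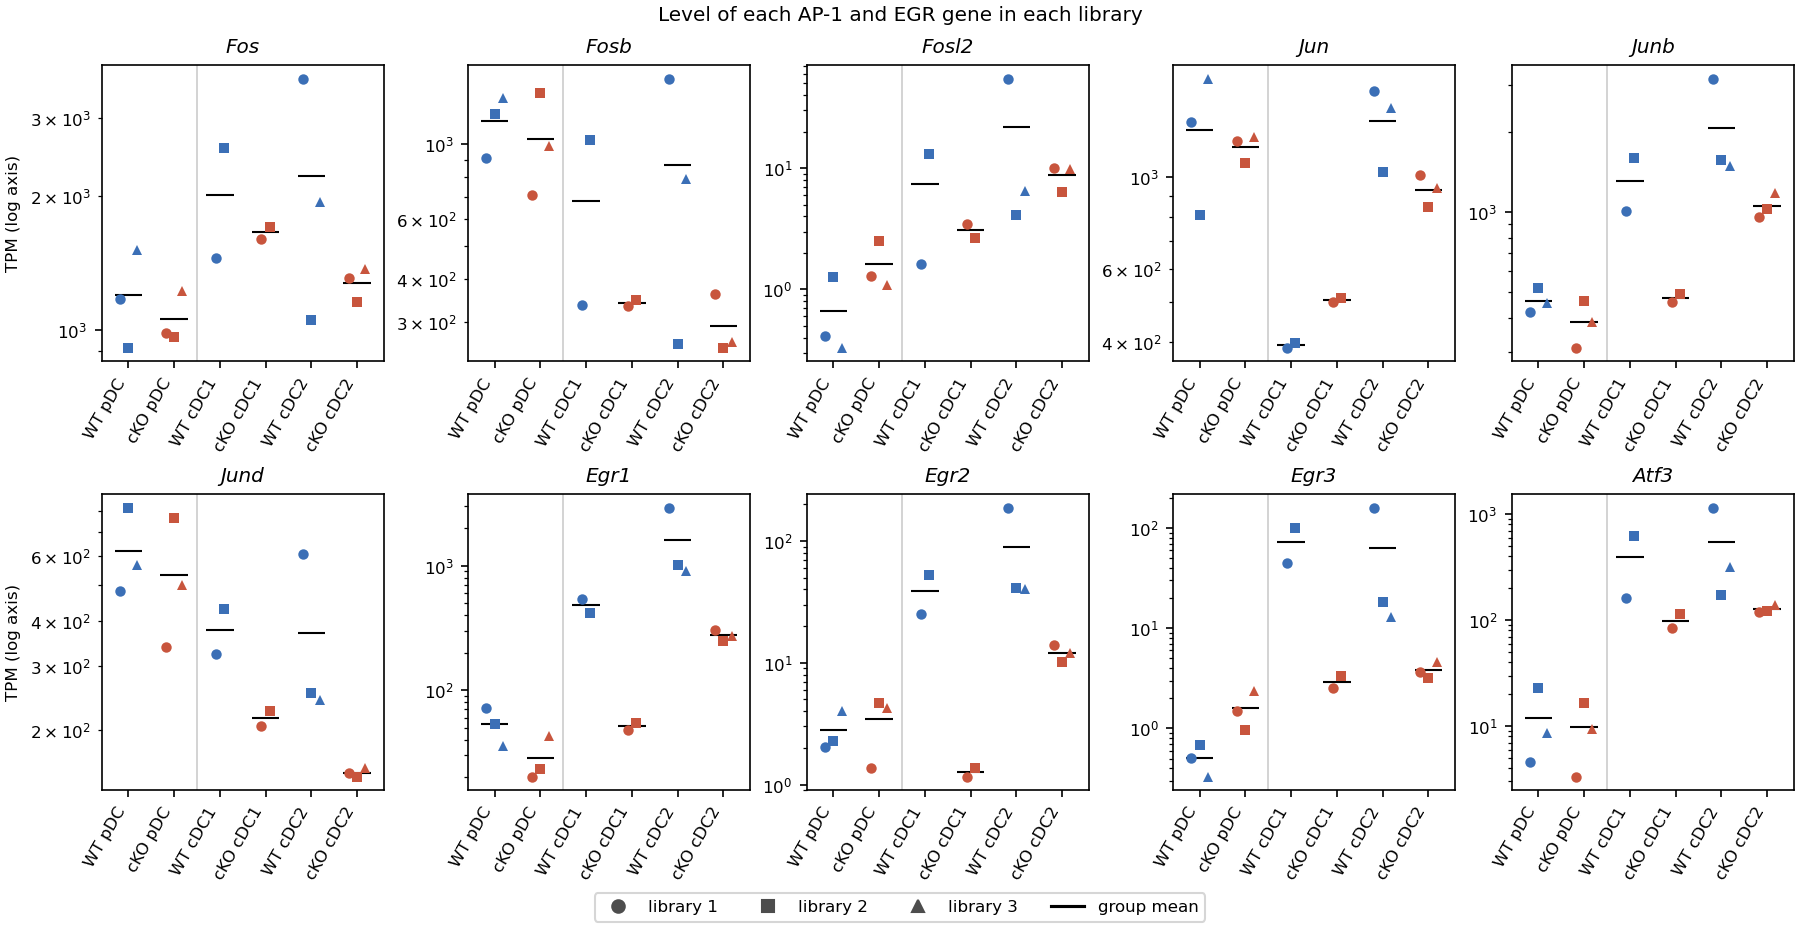
Level of each of the 10 genes in each of the 16 libraries, in TPM on a log axis, with the library number as the symbol, WT in blue and cKO in red and the group mean as a black line. The grey line separates pDC libraries from cDC libraries, which come from separately made tables. WT cDC2 library 1 is the highest of its group in all 10 panels, and the cKO cDC1 and cDC2 libraries lie close together.

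Genotype was compared gene by gene with limma on log2(TPM + 1) across all genes tested, with Benjamini-Hochberg adjusted p-values. Of the members, 4 of the 10 genes fell in cKO cDC1s (Junb, Egr1, Egr2 and Egr3) and 0 rose, where 22.4% of all genes tested were called in either direction and 6.56% lower. A gene was called where the adjusted p did not exceed 0.01 and the log2 fold change was 0.5 or more in size. The lower calls over all genes were 749 of 2555, and 1070 of 2138 after median-of-ratios scaling. In cDC2s 1 of 10 fell (Egr1) and 7 had an unadjusted p under 0.05, where 7.15% of all genes were called in either direction and 3.56% lower. In pDCs limma called 0 of 10, with 3 at an unadjusted p under 0.05 (Fosl2, Egr1 and Egr3), against 1.05% of all genes called in either direction. With the replicate number as a block, which the pDC libraries bear out, 2.96% of all genes were called and still 0 of 10 members, with 5 at an unadjusted p under 0.05. With both high WT libraries left out, the median change of the 10 genes was -0.64 in cDC1s and -0.67 in cDC2s. Over all genes those medians were 0.16 and -0.06.

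By ranges alone, 6 members had every cKO cDC1 library below every WT cDC1 library, as had 24.1% of all genes tested, and 7 had every cKO cDC2 library below every WT cDC2 library, as had 19.2%. In pDCs 0 members were separated downward, where 16.7% of all genes were. The median change of the 10 genes was -1.10 in cDC1s, -1.18 in cDC2s and -0.18 in pDCs, beside medians over all genes of 0.17, -0.03 and -0.05.

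**Figure D2:**
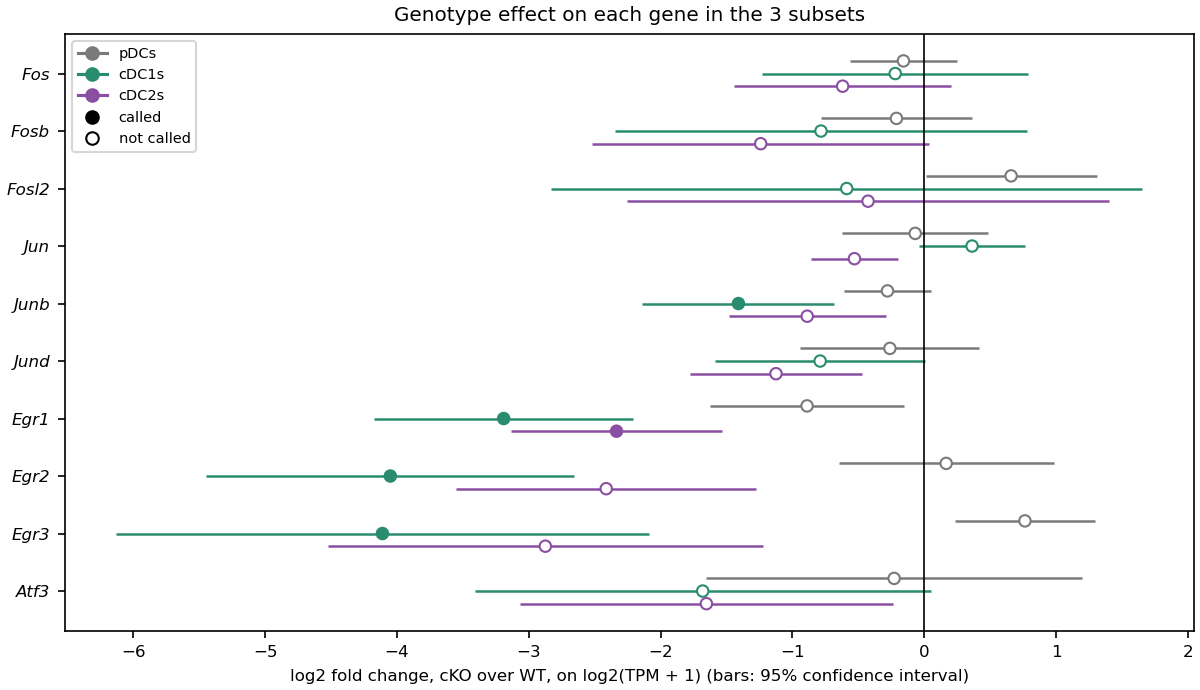
Log2 fold change of each gene, cKO over WT, in pDCs (grey), cDC1s (green) and cDC2s (purple), with 95% confidence intervals, filled where called. Egr1, Egr2, Egr3 and Junb are called in cDC1s and Egr1 in cDC2s, and no gene is called in pDCs.

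The 3 EGR genes fell in cKO cDC1s by the largest factors of the 10 genes. Egr1 (gene ID 13653, chr18:34861207-34864956 on GRCm38.p6), a zinc finger activator downstream of ERK and SRF, was at 542 and 418 TPM in WT cDC1s and at 47.7 and 55.0 in cKO cDC1s. The cKO level was 10.7% of the WT level, and the log2 fold change on log2(TPM + 1) was -3.19 ± 0.44 (SE; limma, Benjamini-Hochberg adjusted p = 0.000518). In cDC2s Egr1 was at 2928, 1014 and 906 TPM in WT libraries and at 305, 249 and 274 in cKO libraries. The groups did not overlap in either subset, and even the lowest WT cDC2 library was above every cKO library. The fold change in cDC2s was -2.33 ± 0.36 (limma, adjusted p = 0.00224) and became -1.80 (adjusted p = 0.000129) without WT cDC2 library 1. It lost its call without cKO cDC2 library 2 or library 3 (adjusted p = 0.0103 and 0.0118). Levels in pDCs were far lower, at 71.6, 53.1 and 35.5 TPM in WT libraries and 20.2, 23.2 and 43.0 in cKO libraries, and these overlapped (-0.89 ± 0.32, limma adjusted p = 0.167).

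Egr2 (13654, chr10:67534469-67542188), which in lymphoid and myeloid cells is tied to tolerance and differentiation, was close to 1 TPM in cKO cDC1s. It was at 25.2 and 52.7 TPM in WT cDC1s and at 1.16 and 1.37 in cKO cDC1s, a log2 fold change of -4.05 ± 0.63 (limma, adjusted p = 0.000922), whose call was lost without cKO cDC1 library 1 (adjusted p = 0.0111). WT cDC2 libraries held 188, 40.8 and 40.0 TPM of Egr2 and cKO cDC2 libraries 13.95, 10.05 and 12.01. These did not overlap either, yet the change of -2.41 ± 0.51 just missed the threshold of 0.01 (limma, adjusted p = 0.0101). Without WT cDC2 library 1 the change was smaller and was called (-1.68, adjusted p = 0.00386), with the SE falling from 0.51 to 0.26. As library 1 was singled out by the values of these genes, that call cannot decide whether Egr2 fell in cDC2s. The change was also called without WT cDC2 library 3 (-2.79, adjusted p = 0.00654). In pDCs Egr2 was between 1.37 and 4.70 TPM in all 6 libraries, with no call (0.17 ± 0.35, limma adjusted p = 0.822). RefSeq places another gene, Gm32255, over part of the Egr2 span.

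Egr3 (13655, chr14:70077317-70082613), a target of calcium and ERK signalling that resembles Egr2, was at 44.5 and 99.7 TPM in WT cDC1s and at 2.54 and 3.34 in cKO cDC1s. The log2 fold change was -4.11 ± 0.91 (limma, adjusted p = 0.00567), and without WT cDC1 library 2 it was -3.54 and no longer called. With both high WT libraries left out it was called at the same size. That fit rests on 1 WT cDC1 library and drops a library singled out by the values of these genes, so it cannot restore the call. The call was also lost without any other cDC1 library or without cKO cDC2 library 3 (adjusted p from 0.0101 to 0.0425). WT cDC2 libraries were at 160, 18.2 and 13.1 TPM and cKO cDC2 libraries at 3.65, 3.20 and 4.63. Library 1 was 8.82 times the next WT cDC2 library. The change in cDC2s was -2.88 ± 0.74 (limma, adjusted p = 0.0231), and it was called, at -1.78 (adjusted p = 0.00601), once that library was left out. As library 1 was singled out by the values of these genes, that call cannot decide whether Egr3 fell in cDC2s. The change was also called, at -3.54 (adjusted p = 0.00849), without WT cDC2 library 3. In pDCs Egr3 was at 0.51, 0.69 and 0.33 TPM in WT libraries and at 1.5, 0.96 and 2.39 in cKO libraries, levels that rest on few reads. All cKO pDC libraries were above all WT ones, which was so for 10.8% of all genes tested, and the change of 0.76 ± 0.23 was not called (limma, adjusted p = 0.116).

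Summed over the 3 EGR genes, WT cDC1s held 570.2 to 611.4 TPM and cKO cDC1s 51.38 to 59.72, and the corresponding ranges in cDC2s were 958.7 to 3276 and 262 to 322.4. The cKO cDC1s had thus come to the range of WT pDCs, 39.85 to 74.15 TPM, a value from the other table.

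Of the JUN genes, Junb fell in cKO cDC1s, and Jun and Jund were not called. Junb (16477, chr8:84976909-84978748), which forms AP-1 with BATF and FOS proteins and has roles in DC subsets, was at 1012 and 1599 TPM in WT cDC1s and at 462 and 495 in cKO cDC1s. The change was -1.41 ± 0.33 (limma, adjusted p = 0.00724). Without WT cDC1 library 2 it was -1.08 and lost its call. With both high WT libraries left out it was called at the same size. That fit rests on 1 WT cDC1 library and drops a library singled out by the values of these genes, so it cannot restore the call. The call was lost too without any other cDC1 library or any cKO cDC2 library. In cDC2s Junb was at 3162, 1571 and 1488 TPM in WT libraries against 962, 1027 and 1178 in cKO libraries, without overlap and without a call (-0.89 ± 0.27, limma adjusted p = 0.0425). In pDCs it was at 421, 517 and 455 TPM against 309.6, 463 and 387 (-0.28 ± 0.14, limma adjusted p = 0.313).

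Jund (16478, chr8:70697739-70700616), the JUN member with the steadiest expression in most tissues, was at 324 and 431 TPM in WT cDC1s and at 205 and 227 in cKO cDC1s. WT cDC2 libraries held 609.5, 254 and 243 TPM and cKO cDC2 libraries 153, 149 and 157. Neither pair of groups overlapped, and neither change was called (-0.79 ± 0.36 and -1.12 ± 0.29, limma adjusted p = 0.105 and 0.0235). Both were called without WT cDC2 library 1, at -0.79 (adjusted p = 0.00174) and -0.69 (adjusted p = 0.00696). As that library was singled out by the values of these same genes, these calls cannot decide whether Jund fell. In pDCs Jund varied by library number more than by genotype, at 483, 817 and 567 TPM in WT libraries 1 to 3 and at 339, 762 and 502 in cKO libraries 1 to 3 (-0.26 ± 0.29, limma adjusted p = 0.656).

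Jun (16476, chr4:95049036-95052222), the founding member of AP-1 and a target of JNK, was the one gene of the 10 that stood higher in cKO than in WT cDC1s. It was at 388 and 399 TPM in WT libraries and at 502 and 510.2 in cKO libraries, and all cKO libraries were above all WT libraries, as for 52.1% of all genes tested. The change of 0.36 ± 0.18 was not called (limma, adjusted p = 0.138), and the median change of all genes tested was 0.17. After median-of-ratios scaling that median was 0.02, a shift that applies to every change in cDC1s given here. In cDC2s Jun was at 1608, 1030.0 and 1466 TPM in WT libraries against 1011, 849 and 939 in cKO libraries (-0.53 ± 0.15, limma adjusted p = 0.0322). The pDC libraries were at 1359, 812 and 1726 TPM in WT and at 1223, 1081 and 1248 in cKO (-0.07 ± 0.24, limma adjusted p = 0.896). GENCODE places an antisense gene, Junos, over part of Jun, and the libraries are not stated to keep strand, so reads of the pair cannot be told apart.

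Of the FOS genes, none was called in any subset. Fos (14281, chr12:85473890-85477274), the partner of JUN proteins in classical AP-1, was at 1457 and 2565 TPM in WT cDC1s and at 1608 and 1711 in cKO cDC1s, so the cKO pair lay inside the WT range. WT cDC2 libraries held 3673, 1057 and 1941 TPM and cKO cDC2 libraries 1309, 1156 and 1374. In cDC2s too the cKO values lay inside the WT range. The changes were -0.22 ± 0.45 in cDC1s and -0.62 ± 0.37 in cDC2s (limma, adjusted p = 0.729 and 0.268), and the first turned to 0.19 without WT cDC1 library 2. In pDCs Fos was at 1175, 914 and 1513 TPM in WT against 986, 968 and 1226 in cKO (-0.16 ± 0.18, limma adjusted p = 0.653).

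Fosb (14282, chr7:19302696-19310118), a FOS protein known for its accumulation after repeated stimulation in neurons, differed widely between WT libraries. WT cDC1s were at 336 and 1025 TPM and cKO cDC1s at 334 and 347. WT cDC2s were at 1555, 258 and 787 TPM and cKO cDC2s at 363, 252 and 261. The lowest WT library was within or next to the cKO values in both subsets, and the changes were -0.78 ± 0.70 and -1.24 ± 0.57 (limma, adjusted p = 0.404 and 0.157). Without WT cDC1 library 2, the change in cDC1s was 0.02. In pDCs Fosb was at 911, 1222 and 1369 TPM in WT and 706, 1409 and 986 in cKO (-0.21 ± 0.25, limma adjusted p = 0.668).

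Fosl2 (14284, chr5:32136472-32157840), the gene of FRA-2, a relative of FOS without its strong activation domain, was low in most libraries. It was at 1.63 and 13.1 TPM in WT cDC1s against 3.47 and 2.67 in cKO cDC1s, and at 54.5, 4.12 and 6.49 in WT cDC2s against 10.0, 6.37 and 9.79 in cKO cDC2s. One WT library in each subset was high and the others were near or below the cKO values. The changes were -0.59 ± 1.01 and -0.43 ± 0.82 (limma, adjusted p = 0.674 and 0.751), and they turned to 0.62 and 0.63 without WT cDC1 library 2 and without WT cDC2 library 1, respectively. In pDCs Fosl2 was at 0.33 to 1.27 TPM in WT and 1.08 to 2.50 in cKO (0.66 ± 0.28, limma adjusted p = 0.234).

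Atf3 (11910, chr1:191170296-191183333), a stress-induced repressor of inflammatory genes in myeloid cells, was at 160 and 625 TPM in WT cDC1s and at 84.7 and 114 in cKO cDC1s. WT cDC2 libraries were at 1156, 171 and 318 TPM and cKO cDC2 libraries at 118, 121 and 139.6. In both cDC subsets all cKO libraries lay under all WT libraries. The changes, -1.68 ± 0.78 and -1.65 ± 0.63, were not called (limma, adjusted p = 0.112 and 0.0952), and they were -0.70 and -0.89 without WT cDC1 library 2 and without WT cDC2 library 1. In pDCs Atf3 was at 4.6, 22.9 and 8.59 TPM in WT and at 3.33, 16.7 and 9.41 in cKO, with library 2 highest in both genotypes (-0.23 ± 0.62, limma adjusted p = 0.864).

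The difference of the genotype effects, cDC1 minus cDC2, was called for 0 of 10 members by limma, with 1 at an unadjusted p under 0.05, where 2.56% of all genes were called. That 1 was Jun, at 0.89 ± 0.23 (limma, adjusted p = 0.0390), the effects being 0.36 and -0.53. Egr2 had a difference of -1.64 with a 95% interval of -3.44 to 0.16, and Egr1 one of -0.86 with an interval of -2.12 to 0.41 (limma, adjusted p = 0.200 and 0.328). Without WT cDC2 library 1, both were called, at -2.37 and -1.39 (adjusted p = 0.00755 and 0.00506). As that library was singled out by the values of these same genes, these calls cannot decide whether the effects differ. Without WT cDC2 library 2, Jun was called instead. Egr3 and Junb had differences of -1.24 and -0.52, with intervals that ran from -3.85 to 1.37 and from -1.46 to 0.42.

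Between the WT subsets that share a table, Jun and Egr1 were lower in cDC1s than in cDC2s, where 31.7% of all genes tested were called in either direction and 20.8% lower. The difference of Jun was -1.77 ± 0.17 (limma, adjusted p = 1.14e-05), from 388 and 399 TPM to 1030.0 to 1608. It was called under each of the 19 alternatives tried. That of Egr1 was -1.55 ± 0.40 (limma, adjusted p = 0.00935) and was called under 7 of 19, being lost without any one cDC1 library or cKO cDC2 library (adjusted p from 0.0139 to 0.0671). It was lost too with no filter on low values, after median-of-ratios or quantile scaling, in FPKM and without the trend of the variance (limma adjusted p = 0.0249, 0.0264, 0.0112, 0.0138 and 0.0119). The lower calls over all genes in this contrast were 2371 of 3612, and 1715 of 3532 after median-of-ratios scaling. No other member was called, and Egr3 was the member with the largest positive difference (0.95 ± 0.83, limma adjusted p = 0.372). Without WT cDC2 library 1, Egr3 and Jund were called higher in WT cDC1s, at 2.05 and 0.59 (limma, adjusted p = 0.000803 and 0.00540). That library was singled out by the values of these genes.

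The order of the group means differed between the genes. For Fos, Junb, Egr1, Egr2, Egr3 and Atf3 the first 2 places were held by the WT cDC groups. For Egr1 the mean went from 1616 TPM in WT cDC2s through 479.7 in WT cDC1s and 275.7 in cKO cDC2s to 53.4 in WT pDCs, 51.3 in cKO cDC1s and 28.8 in cKO pDCs. The ranges of those neighbours did not overlap, apart from WT pDCs and cKO cDC1s. Fosb and Jund were highest in WT pDCs, at means of 1167 and 622 TPM, and lowest in cKO cDC2s, at 292 and 153. All neighbours in the order of Fosb overlapped. Fos and Junb were highest in WT cDC2s, at means of 2224 and 2073 TPM, and lowest in cKO pDCs, at 1060 and 386. Jun was the one gene with WT cDC1s in the last place, at 393 TPM. Levels of pDCs and cDCs are set side by side across tables that were made separately, with no test.

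The spread among replicates was wide for these genes in every WT group and in cKO pDCs, and narrow in the cKO cDC groups. The median SD of log2(TPM + 1) over the 10 genes was 1.10 in WT cDC2s and 0.65 in WT cDC1s, and it was 0.15 in cKO cDC2s and 0.10 in cKO cDC1s. The same median over all genes tested was 0.17, 0.11, 0.13 and 0.07 in those groups. The width in WT cDC2s rested largely on library 1: over libraries 2 and 3 alone the median SD of the 10 genes was 0.34, beside 0.16 for all genes, and 4 of 10 lay above the 90th percentile. The cKO cDC2 value without any one library was 0.13 to 0.15. In pDCs it was 0.39 in WT and 0.45 in cKO for the 10 genes, beside 0.10 and 0.12 for all genes. Genes of at least 100 TPM had median SDs of 0.05 to 0.17 over the 6 groups.

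Of the 10 genes, 9 lay above the 90th percentile of the SDs of all genes in WT cDC2s, 7 in WT cDC1s, 8 in WT pDCs and 7 in cKO pDCs, but 2 in cKO cDC2s and 3 in cKO cDC1s. As a fold, the highest WT cDC2 library exceeded the lowest by 1.56 (Jun) to 13.2 (Fosl2) times, with a median of 4.09. Between libraries 2 and 3 alone this fold was 1.02 to 3.05, with a median of 1.41. For the cKO cDC2 libraries this fold was 1.05 (Jund) to 1.57 (Fosl2), with a median of 1.23. The fold between the WT cDC1 libraries was 1.03 (Jun) to 8.04 (Fosl2) and that between the cKO cDC1 libraries 1.02 (Jun) to 1.34 (Atf3). No difference in spread between genotypes was tested, and as a cKO library pooled more mice than a WT library, genotype and pool size cannot be told apart in it.

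**Figure D3:**
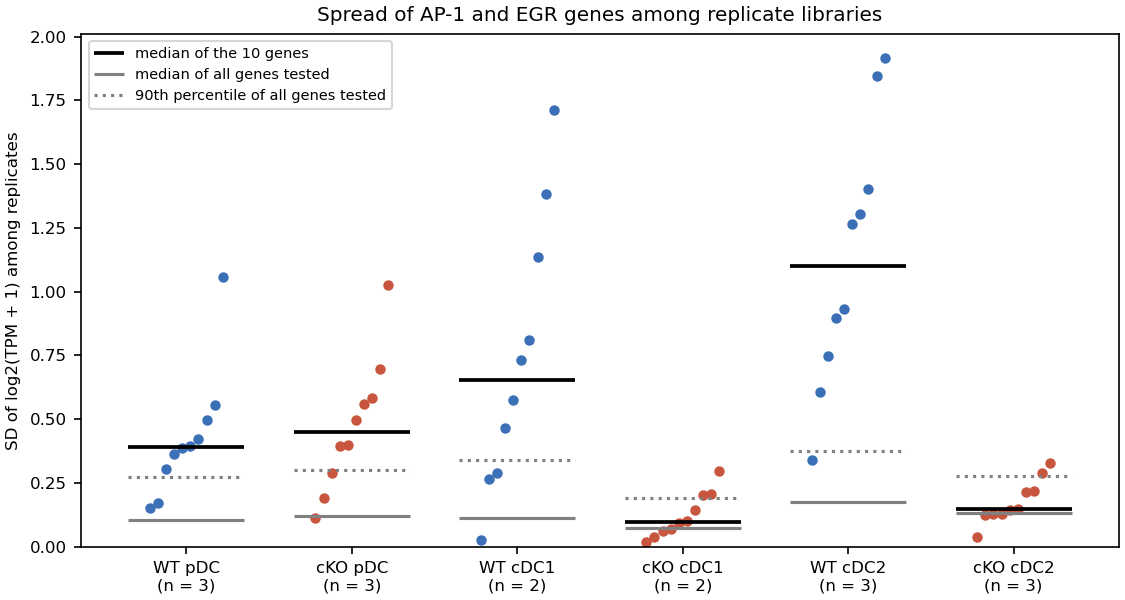
SD of log2(TPM + 1) among the replicate libraries of each group, with 1 point per gene, the median of the 10 genes in black, and the median and 90th percentile of all genes tested in grey. The points of the WT cDC groups reach 1.71 and 1.92, whereas no cKO cDC point is above 0.33.

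**Figure D4:**
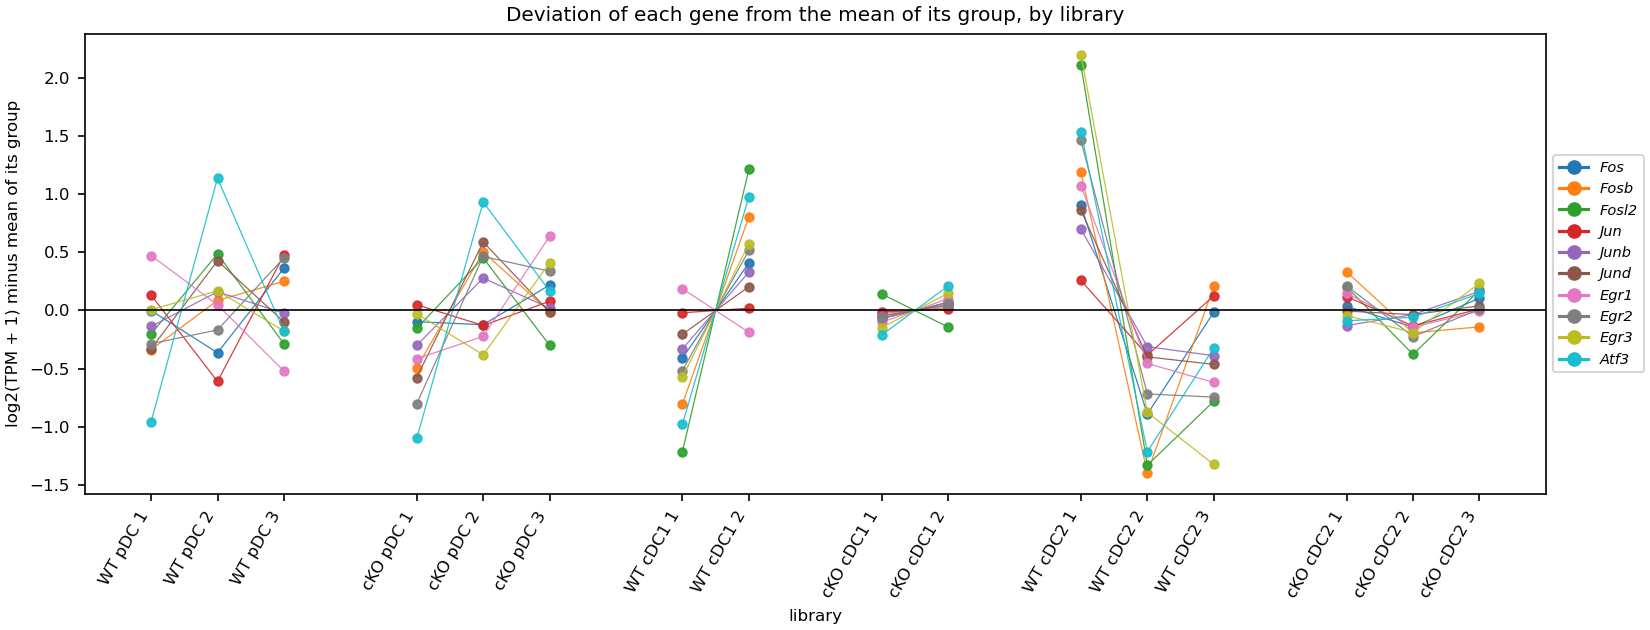
Deviation of each gene from the mean of its group on log2(TPM + 1), by library, with lines joining the libraries of a group. The genes move together in WT cDC2s, where library 1 is above the mean for 10 of 10, and less so in pDCs, where Atf3 spans the widest range and Fos and Jun follow another order.

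In pDCs the genes did not share one order of libraries. In WT pDCs library 2 was highest for 5 of them, library 3 for 4 and library 1 for Egr1, and in cKO pDCs library 2 was highest for 6 and library 3 for 4. Atf3, Fosb, Jund and Junb had their highest cKO value in library 2, whereas Fos, Jun and Egr1 had theirs in library 3 (1226, 1248 and 43.0 TPM). Correlation with the mean standardised profile of the 10 genes over the 6 pDC libraries was 0.80 to 0.91 for Fosb, Egr2, Jund, Junb and Atf3, and -0.18 to 0.25 for the other 5. Over the 10 cDC libraries it was 0.78 to 0.97 for 9 genes and 0.48 for Jun. Over the 8 libraries left without the high WT pair, it ran from 0.16 (Fos) to 0.97 (Atf3), with Fosl2 at 0.21 and Jund at 0.36. These are descriptions, with a profile to which each gene itself contributed.

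The genes outside the 10 that followed this profile most closely were Zc3h12a (r = 0.968), Smndc1 (0.962), Klf9 (0.957), Dnajb9 (0.957) and Tsc22d3 (0.956) over the 10 cDC libraries. They encode, in that order, an RNase that degrades inflammatory transcripts, a splicing factor, a Krüppel-like factor, a chaperone of the endoplasmic reticulum and the glucocorticoid-induced protein GILZ. Over the 6 pDC libraries the closest were Tmem251 (0.995), Mettl25 (0.991), Klf2 (0.982), Tpt1 (0.982) and Hccs (0.981). Without the high WT pair, the 5 genes of the cDC libraries stood at 0.945, 0.876, 0.769, 0.825 and 0.906. The libraries share groups and a sort, and no test was made.

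Other genes of the immediate-early class had the same high libraries. Of 29 tested in cDCs, 25 were highest in WT cDC2 library 1 and 25 in WT cDC1 library 2. Their summed level was 13520 TPM in WT cDC2 library 1 against 4962 and 5207 in the other two. In cKO cDC1s 8 of 29 fell and 2 rose, and the 3 largest changes were in Nr4a3, an orphan nuclear receptor (-3.53 ± 0.56, limma adjusted p = 0.00105), Ier3 (-3.48 ± 0.38, adjusted p = 0.000173) and Gadd45b, a stress sensor of p38 signalling (-2.997 ± 0.472, adjusted p = 0.00102). In cKO cDC2s 3 of 29 fell, namely Ier3 (-1.62), Plk3 (-1.31) and Ier5 (-0.84), with limma adjusted p of 0.00693, 0.00998 and 0.000233. In pDCs limma called 0 of 28, with 3 at an unadjusted p under 0.05. The median change of the list was -1.17, -0.84 and 0.06 in cDC1s, cDC2s and pDCs. The background of lower calls was 6.56% in cDC1s and 3.56% in cDC2s, as for the 10 genes. Without the high WT pair, the medians in cDC1s and cDC2s were -0.98 and -0.48.

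Of 11 inhibitors that limit the same response, 5 fell in cKO cDC1s and 0 rose. The background of lower calls there was 6.56% of all genes. The 5 were Dusp5 (-3.42), Dusp2 (-1.89) and Dusp1 (-1.55), phosphatases of MAP kinases, Zfp36l1 (-1.73), which drives mRNA decay, and Nab2 (-0.95), a corepressor of EGR proteins. Their limma adjusted p ran from 0.000171 to 0.00969. In cDC2s Zfp36l1 fell (-1.21, limma adjusted p = 0.00410) and Nab2 rose (0.72, adjusted p = 0.00334), and the difference of the Nab2 effects was called (-1.67, adjusted p = 0.000913). Nab2 was at means of 24.3 and 12.1 TPM in WT and cKO cDC1s and of 10.5 and 18.1 in WT and cKO cDC2s. Without the high WT pair, the median change of the list went from -0.95 to -0.58 in cDC1s and from -0.25 to -0.07 in cDC2s. Nab2 was then not called in cDC2s. In pDCs, 1 of 12 was called, Spred1, which restrains RAS (1.01, limma adjusted p = 0.00258).

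Of the kinases and factors that act above these genes, none was called lower in a genotype comparison. Of 19 tested, 0 fell and 2 rose in cKO cDC1s, where 6.56% of all genes tested were called lower and 15.8% higher. The RSK2 gene Rps6ka3 was among those that rose (0.61, limma adjusted p = 0.00277). In cDC2s and in pDCs limma called 0 of 19, with 3 and 1 at an unadjusted p under 0.05. Relatives of the AP-1 and EGR genes were called in no genotype comparison either, with 0 of 9 in cDC1s and 0 of 9 in cDC2s, with 3 each at an unadjusted p under 0.05, and 0 of 7 in pDCs, with 1 (limma). Between WT cDC1s and cDC2s, the AP-1 dimerisation genes Jdp2 (1.54, limma adjusted p = 0.00023) and Batf2 (1.02, adjusted p = 0.00529) were higher in cDC1s.

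The response lists also held calls between the WT subsets. Of all genes tested there, 31.7% were called in either direction and 20.8% lower in cDC1s. No list was tested as a whole. Of 29 other immediate-early genes, 2 were higher in WT cDC1s than in WT cDC2s, Trib1 (4.11) and Arc (3.10), and 7 were lower, led by Ptgs2, the gene of the inducible cyclooxygenase (-4.56). Of 19 kinases and factors, 7 were lower in WT cDC1s, with Elk3 (-2.88), Mapk3, the ERK1 gene (-0.93), and Rps6ka3 (-0.86) changed most, and 1 was higher. Of 11 inhibitors, Nab2 (1.14) was higher and Dusp6 (-0.69) and Spred1 (-0.64) were lower. Limma adjusted p of the named genes ran from 2.01e-08 to 0.00516.

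Heat shock and chaperone genes, which also respond to handling, rose in the cDC1s in which the EGR genes fell. In cKO cDC1s 7 of 11 rose, where 15.8% of all genes tested were called higher, with Hspa1b (5.05), Hspa1a (4.61) and Hspb1 (2.44) changed most, at limma adjusted p of 0.00668, 0.00804 and 0.00246. Hspa1a and Hspa1b are near-identical copies, so the share of reads between them is uncertain. In cKO cDC2s 1 of 11 rose (Hspb1, 2.57, limma adjusted p = 0.00165), where 3.59% of all genes were called higher, and in pDCs limma called 0 of 11, with 9 at an unadjusted p under 0.05 and a median change of 0.57. Without the high WT pair, Hspa1b, Hspa1a, Dnajb1 and Hspe1 were no longer called in cDC1s. The median change of the list was then 1.14 in cDC1s and 0.24 in cDC2s. Hspd1, a mitochondrial chaperone, was the 1 gene of the list whose effects differed between cDC1s and cDC2s (1.02, limma adjusted p = 0.00222). The summed level of the list was 5736 to 5766 TPM in WT cDC1s and 10870 to 12220 in cKO cDC1s, 4890 to 7994 in WT cDC2s and 9776 to 12580 in cKO cDC2s, and 4763 to 6894 in WT pDCs and 7045 to 11410 in cKO pDCs. Within WT cDC2s none of the 11 was highest in library 1, where all of the 10 AP-1 and EGR genes were. The part of handling in the results on those genes was not tested.

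Genes of DC maturation, such as the chemokine receptor gene Ccr7, fell beside them in cDC1s. All 10 of the list fell there, against 6.56% of all genes called lower (log2 fold changes of -4.38 for Ccr7, -4.18 for Il12b and -3.53 for Cacnb3, limma adjusted p of 8.25e-05, 1.58e-05 and 0.000702), and 2 of 10 fell in cDC2s (-1.91 for Ccr7 and -0.85 for Cd86, adjusted p of 0.00440 and 0.000927). When both high WT libraries were left out, Cd86 was no longer called in cDC1s and Ccr7 no longer in cDC2s. The median changes of the list were then -3.37 and -0.62. The effects differed between the subsets for Il12b (-4.05) and Ccl22 (-3.45), with adjusted p of 0.000359 and 0.00102. In pDCs limma called 0 of 8, with 1 at an unadjusted p under 0.05. Their summed level was 2446 TPM in WT cDC1 library 1 and 1548 in library 2, and 381 to 481.7 in cKO cDC1s. The summed level of the 10 AP-1 and EGR genes had the reverse order, 4290 and 7226 TPM. That of the 3 EGR genes was 611.4 and 570.2, most of it Egr1, which stood at 542 and 418. Egr2 (25.2 and 52.7) and Egr3 (44.5 and 99.7) were higher in library 2. In WT cDC2s the summed level of the maturation genes was 1327 TPM in library 1, between the 1237 and 1621 of the other libraries. The part of maturation in the fall of the EGR genes and of Junb was not tested.

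**Figure D5:**
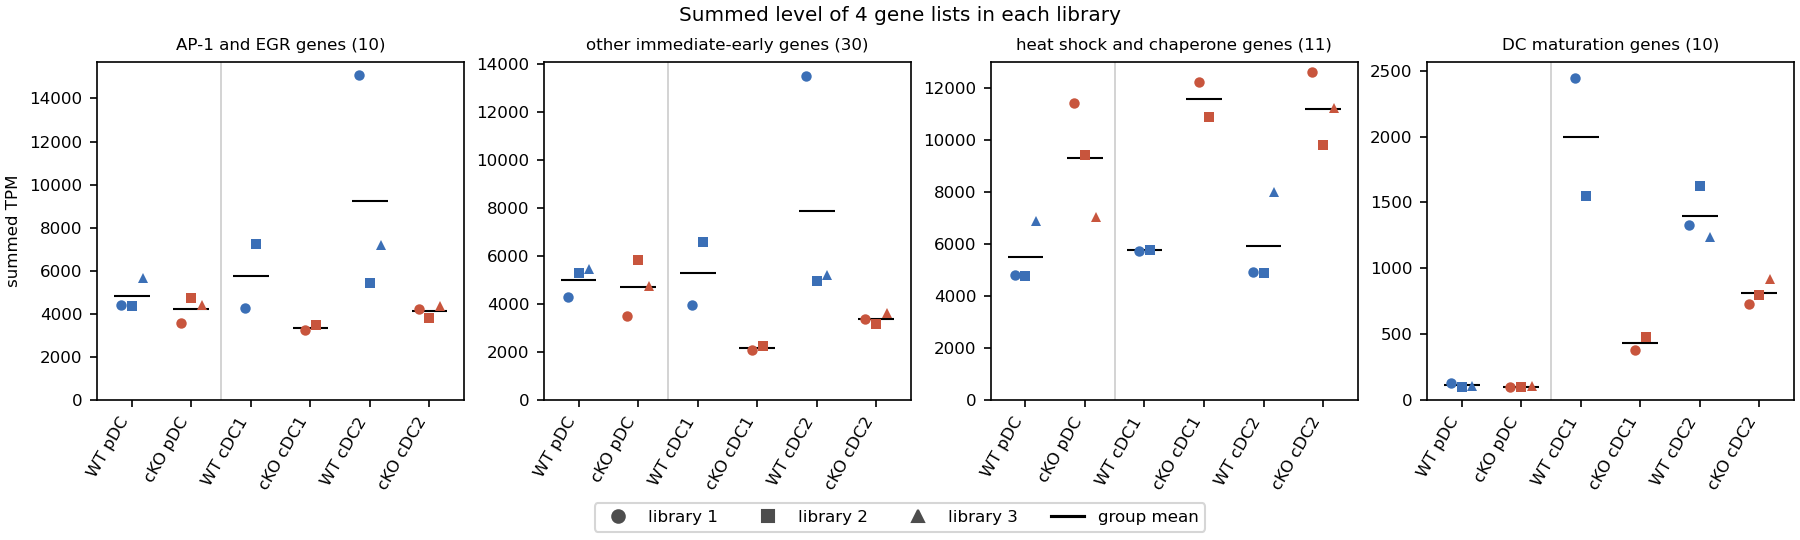
Summed TPM of the 10 AP-1 and EGR genes, of other immediate-early genes, of heat shock and chaperone genes and of DC maturation genes in each library, with the library number as the symbol and the group mean as a line. WT cDC2 library 1 reaches 15090 and 13520 TPM in the first 2 panels but 4901 in the heat shock panel, and the cKO cDC1s are lowest in the first 2 panels.

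Markers of other cells did not follow the 10 genes in WT cDC2 library 1, which was highest of its group for none of 6 lists. Erythroid markers summed to 531.8 TPM there, against 843.3 and 4247, and monocyte and macrophage markers to 1224 against 1277 and 1687, the lowest of the group in both cases. In WT cDC1 library 2, by contrast, several lists were higher than in library 1, with monocyte and macrophage markers at 627 against 364 TPM, neutrophil markers at 16.74 against 1.49 and B cell markers at 32.3 against 23.85, while erythroid markers were at 152.1 against 1297. Their part in the values of that library was not tested. Neutrophil markers summed to 1.49 to 82.14 TPM over the 10 cDC libraries, with Ly6g listed at 0 in 7 of 10, and NK cell markers to 1.02 to 6.1. T cell markers reached 30.25 TPM, of which Cd5, which DCs also express, made up most, and B cell markers 61.46 TPM.

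Between genotypes, monocyte and macrophage markers rose for 3 of 8 in cKO cDC2s (Lyz2 by 1.40, Fcgr1 by 1.15 and Csf1r by 0.94 on the log2 scale). They rose for 2 of 8 in cKO cDC1s (Ly6c2 by 1.40 and Csf1r by 0.85). Of all genes tested, 3.59% were called higher in cDC2s and 15.8% in cDC1s. Summed levels were 1224 to 1687 TPM in WT cDC2s and 2569 to 3287 in cKO cDC2s. When both high WT libraries were left out, Fcgr1 and Csf1r were no longer called in cDC2s and Csf1r no longer in cDC1s. Most of the sum was Lyz2, at 617 to 1048 TPM in WT and 1945 to 2449 in cKO cDC2s. The other 5 were not called in cDC2s, and Adgre1 was lower in every cKO cDC2 library (147 to 152 TPM against 179.6 to 187). In cDC1s the sums were 380.8 to 394.3 TPM in cKO, inside the WT range of 364 to 627. In pDCs limma called 0 of 7, with 5 at an unadjusted p under 0.05 and a median change of 0.49. The sums there were 4866 to 5553 TPM in WT and 5721 to 5886 in cKO, most of it Ly6c2. The part of monocytes and macrophages in the levels of the 10 genes was not tested. Neutrophil and erythroid markers had 0 calls by limma in any subset, with 3 of 5 neutrophil markers at an unadjusted p under 0.05 in pDCs, 1 of 5 in cDC1s and 0 in cDC2s, and 0 of 4 erythroid markers in each. T cell and NK cell markers had 0 calls as well, with 2 of 2 T cell markers at an unadjusted p under 0.05 in pDCs and otherwise 0 (limma), and 1 B cell marker, Ms4a1, fell in both cDC subsets (-1.48 and -1.46).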

How the data were processed

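RNA of sorted splenic pDCs, cDC1s and cDC2s from WT and cKO mice was sequenced with single-end 50-base reads in 16 libraries. Per the labels and the study's methods, the authors cleaned reads with SOAPnuke, mapped them to mm10 with HISAT2 2.0.4 and to transcripts with Bowtie2 2.2.5, and estimated expression with RSEM 1.2.12. The release of the transcript set and the strand of the libraries are not given in the sources used here. The deposited values are TPM and FPKM, in one table for pDCs and another for cDCs. TPM, which sum to a fixed total per library, were used throughout, and the deposited FPKM served for an alternative and for estimating depth.

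The study used a count model. As the tables hold no counts, limma 3.58.1 (R 4.3.3, with trend) was fitted to log2(TPM + 1), a scale that understates the changes of low genes, for genes with a mean of at least 1 TPM. One fit held the 6 pDC libraries and another the 10 cDC libraries with 4 group means. Genes were called where the Benjamini-Hochberg adjusted p did not exceed 0.01 and the log2 fold change was 0.5 or more in size. No test was made between the tables. Groups followed the labels. Levels, spreads, correlations and motif matches were computed with Python 3.11.15, pandas 2.3.3 and numpy 2.4.6. Read depth was estimated from the steps between the lowest FPKM values, taking the libraries of a table as equally deep, and it covers counting error only.

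The members and all gene lists were chosen with earlier results of these data known. All members were named, and from each other list the genes called where there were up to 5 calls, or otherwise the 3 with the largest absolute changes, with marker lists given mainly as sums. One gene of these lists is not reported here. In pDCs, same-numbered WT and cKO libraries deviated together (r = 0.31, 0.392 and 0.206 over genes), which pairs them, although no label says that a number marks a shared day or pool. Alternatives covered the pseudocount (0.1), the filter, median-of-ratios and quantile scaling, FPKM, the trend, the replicate block and leaving out each library. Leaving out both high WT libraries, a crossed block and the spread without single libraries were added after the data were seen. The fits were tested on simulated data.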

Additional observations from a re-analysis of the deposited data

How the results depend on the processing

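Of the 10 genes, 4 were called in cDC1s. This count was 2 with no filter on low values, 3 with the replicate block and 2 with the block crossed. Of all genes, 12.1%, 16.6% and 18.3% were called under these settings. Without single cDC2 libraries the count was 2 to 5, against 18.6% to 25.4% of all genes called. The count of 5 came without WT cDC2 library 1, which was singled out by the values of these genes. The count of 4 fell without any one cDC1 library. In cDC2s the count of 1 was 0 to 4 without single cDC2 libraries, against 2.77% to 7.96% of all genes called. It was 0 without cKO cDC2 library 2 or library 3. Without WT cDC2 library 1, 2 or 3 it was 4, 2 and 3, respectively. The first of these left out the library singled out by the values of these genes, so it cannot decide how many fell. The difference of the effects had 0 calls, and 0 to 2 without single cDC2 libraries. Between WT cDC1s and WT cDC2s the count of 2 was 1 with no filter, after median-of-ratios or quantile scaling, in FPKM and without the trend. It was 1 to 4 without single cDC2 libraries. In pDCs it was 0 under every alternative listed, although FPKM tested only 8 of the 10 and leaving out any one cKO pDC library 9. The median SD of the 10 genes among WT cDC2s, 1.10, was 0.34 to 1.41 when single libraries were left out, being 0.34 without library 1, and that among WT pDCs, 0.39, was 0.25 to 0.42. Under the other alternatives run for it the spread kept within its margin. The causes were not tested.

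Egr1 was called in cDC1s under 19 of 19 alternatives (-3.38 to -3.004), Egr2 under 18, Egr3 under 12 and Junb under 9 (-1.74 to -1.08). Egr1 in cDC2s was called under 17 of 19.

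Several changes that were not called turned their sign when 1 library was left out. In pDCs the ranges were -0.34 to 0.0238 for Fos, -0.46 to 0.0349 for Fosb, -0.37 to 0.17 for Jun, -0.56 to 0.0270 for Jund, -0.0661 to 0.57 for Egr2 and -0.71 to 0.34 for Atf3. In cDC1s they were -0.63 to 0.19 for Fos, -1.59 to 0.0200 for Fosb and -1.80 to 0.62 for Fosl2, and in cDC2s -1.09 to 0.63 for Fosl2. With both high WT libraries left out these 4 changes were 0.19, 0.0200, 0.62 and 0.63. Between the WT subsets the ranges were -0.47 to 0.43 for Fos, -1.02 to 0.59 for Fosb, -2.29 to 0.13 for Fosl2, -0.0744 to 0.59 for Jund and -1.31 to 0.65 for Atf3, and Fos was at 0.18 after median-of-ratios scaling, 0.0461 in FPKM and 0.0242 with both high WT libraries left out.

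In the cDCs the replicate numbers did not pair the libraries. The correlations of same-numbered deviations were -0.233 in cDC1s and -0.249, 0.253 and -0.165 in cDC2s. The replicate block left 0 calls among the 10 genes in pDCs, 3 in cDC1s, 1 in cDC2s, 0 in the difference and 2 between the WT subsets. Over all genes it gave 335 calls in pDCs against 119 without it, 356 in cDC2s against 816 and 95 in the difference against 292.

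With no filter, 24 genes were called in pDCs. With 2 libraries per cDC1 genotype, small changes could not be told from the spread. For a transcript of 2000 bases, 3 reads correspond to about 0.143 to 0.178 TPM, so levels below that range rest on fewer reads.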
